A study of Mus musculus with 10 samples.

Results

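Substance P (SP) is a tachykinin, a short neuropeptide that sensory nerve endings in the bladder wall release. It acts through the neurokinin receptor NK1 (gene Tacr1), a Gq-coupled receptor, and is known in the bladder for causing plasma extravasation, mast cell activation and recruitment of leukocytes. Here the wild type (WT) bladder 4 h after SP was compared with the WT bladder 24 h after saline. Gq-coupled receptors raise intracellular calcium and activate protein kinase C and the MAP kinases, and the first genes known to answer such signals are the immediate early genes, among them Fos, Myc and the Egr family.

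Female C57BL/6J mice, used as WT, were anesthetized and received SP (10 μM) or pyrogen-free saline by catheter into the bladder. The bladders of 8 mice were pooled, and the 33P-labelled cDNA of each pool was hybridized to 1 Clontech Atlas mouse plastic 5K array. The comparison thus has 1 SP array and 1 saline array, of 10 arrays in the series, and no p-value can be given. The saline bladders were taken at 24 h and the SP bladders at 4 h, so the agent and the time after instillation cannot be told apart. Arrays set beside these were the WT pools of SP at 24 h and LPS (100 μg/ml) at 4 h. They also included PAR1-/- pools, from mice lacking the thrombin receptor PAR1, of saline at 24 h and SP at 4 h. The labels give 20 μM SP for the PAR1-/- pools, and the methods give the WT dose for all mice. In bulk tissue, fewer cells of a type and less RNA per cell cannot be told apart.

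Spot intensities, whole numbers, were recovered from the deposited scores for 4946 of 5030 probes. These represent 4918 genes, probes with no gene name counting as 1 gene each. A spot counted as above background where it exceeded the peak of its array's log2 intensities by 3 SD, the SD being that of the values below the peak. The threshold was an intensity of 13.2 on the saline array, where 26.1% of probes were above it, and 25.6 on the SP array, where 38% were. The SP array was brighter, and its intensities summed to 258511 against 73763. Ratios were therefore taken after regression of each array on the mean of the 10 arrays. A ratio is a lower bound, written "at least", where the saline spot was at background, and an upper bound, written "at most", where the SP spot was. A ratio or bound was obtained for 1638 of the 4918 genes. The remaining genes were at background on both arrays or had a bound that did not separate the arrays. A lower bound was thus kept only with a positive log2 value and an upper bound only with a negative one. The sign of a bound is therefore fixed, and it enters the list medians.

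The gene names are those of the platform annotation, and their tie to the spots was checked against genes any bladder is known to express. Of 49 markers of bladder cell types and leukocytes on the array, 13 were above background on the saline array and 20 on the SP array. Among the defining markers, the smooth muscle actin Acta2 measured 23 on the saline array and 69 on the SP array, and the smooth muscle myosin Myh11 measured 11 and 79. The uroplakin Upk2, a urothelial marker, measured 8 and 33, and the fibroblast proteoglycan Dcn measured 9 and 15, at background on both. The 3 spots of Actb read 9, 19 and 22 on the saline array, and the 3 spots of Gapdh 10, 13 and 33. Of the 39 genes of ribosomal proteins and translation factors, 28.2% were above background on the saline array, against 26.2% of all genes. The brightest saline spots carried the names Fem1a (247), Snap91 (240) and Ina (234), the last pair known from neurons. Over the 34 pairs of spots that share a gene name, the correlation of log2 intensity was -0.24 on the saline array. On the SP array it was -0.06, as a description across spots. In none of the 34 pairs were both spots above background on both arrays, so a low correlation could also arise under right names. The names below are the annotation's, and some or all may not belong to their spots. Each value is that of the spot that carries the name, and what is said of a gene's function holds only if the name is right.

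More genes were higher than lower after SP. A ratio or bound above 3 was found for 78 of 1638 genes (4.76%), of which 73 are named, and a ratio or bound below one divided by 3 for 22 (1.34%), of which 20 are named. Of the 78, 49 were measured on both arrays and 29 were bounds only. Just inside the limit lay Xiap (at least 3.01-fold) and Strap (0.323-fold), and just outside it Cd82 and Fth1 (each 2.98-fold) and Artn (0.339-fold). The only measure of error is the pair of saline arrays, WT and PAR1-/-, which also differ in genotype. Their log2 ratios had an SD of 0.47 over the probes measured on both, or 1.39-fold, against 0.86 between SP and saline. Both saline arrays were dim (intensities summing to 73763 and 70754), unlike the SP array (258511). Against the saline of its genotype, the SD was 0.50 for WT SP 24 h (75208), 0.91 for WT LPS 4 h (169237) and 0.66 for PAR1-/- SP 4 h (288687). The error between arrays of unlike brightness was thus not measured, and 0.47 may understate it. Between the saline arrays 13 of 1720 genes (0.756%) were more than 3-fold higher in PAR1-/- and 10 (0.581%) more than 3-fold lower. The split of higher to lower genes depended on scaling. It was 180 to 8 when the 75th percentiles were made equal, 86 to 44 when the medians of probes above background were made equal, and 953 to 1 with no normalization.

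**Figure D1:**
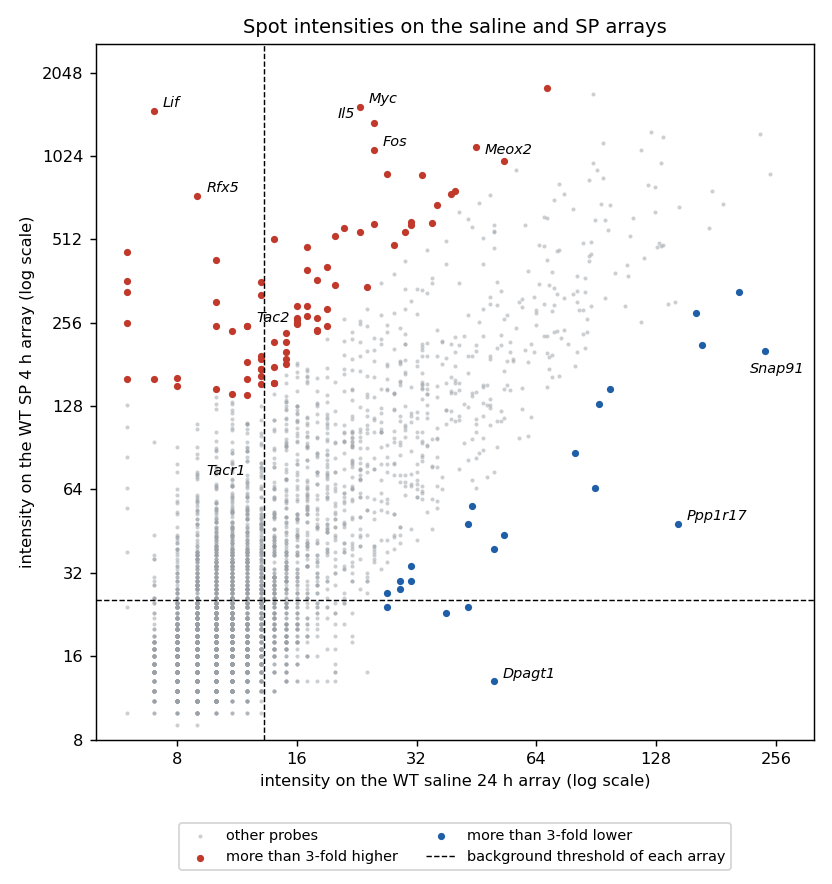
Intensity of each probe on the WT saline 24 h array (x axis) and on the WT SP 4 h array (y axis), both on log scales, with dashed lines at the background threshold of each array. Probes more than 3-fold higher (red) reach an intensity of 1803 on the SP array, and probes more than 3-fold lower (blue) lie below the cloud because most spots are brighter on the SP array.

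The highest value was that of Lif, which encodes leukemia inhibitory factor, a cytokine of the interleukin-6 family. Its spot measured 7 on the WT saline array, 1495 on the SP array and 9 on the PAR1-/- saline array. On the remaining arrays it measured 9 in WT SP 24 h, 27 in WT LPS 4 h, 128 in WT LPS 24 h, 31 in PAR1-/- SP 4 h, 16 in PAR1-/- SP 24 h, 22 in PAR1-/- LPS 4 h and 13 in PAR1-/- LPS 24 h. Intensity was highest on the SP array, and Lif was at least 23.1-fold higher than in saline. The spot was also above background in WT LPS 24 h, where the threshold was 16.3, and slightly so in WT LPS 4 h (24), PAR1-/- SP 4 h (29.2) and PAR1-/- LPS 4 h (21.4). In WT LPS 4 h the bound was at least 1.08-fold, over the same saline array.

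Rfx5, the DNA-binding subunit of a complex that activates MHC class II promoters, was at least 12.6-fold higher after SP. Its intensity was 736 on the SP array, 9 on the saline array and between 10 and 19 on the remaining 8 arrays, all at background. Kcnj5, a subunit of G protein-gated potassium channels, showed the same pattern, with 303 on the SP array, 10 in saline and between 10 and 17 elsewhere, and was at least 5.85-fold higher. Rfx5, Kcnj5 and Gas1, the last chosen after its values were seen, were above background on the SP array alone and more than 3 times its threshold after normalization. The same held for 15 probes of the WT LPS 4 h array, 3 of the PAR1-/- SP 4 h array and none of the saline arrays.

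Genes of the immediate early response were found among the highest ratios, but most of the list was at background. Of the 24 genes in the list, 19 were on the array and 8 had a ratio or bound. Fos, a subunit of the transcription factor AP-1, measured 25 in saline and 1080 after SP, an 8.11-fold difference after normalization. Its other WT intensities were 62 in SP 24 h, 488 in LPS 4 h and 92 in LPS 24 h, and those of PAR1-/- were 28 in saline, 407 in SP 4 h, 218 in SP 24 h, 262 in LPS 4 h and 254 in LPS 24 h. The intensity was highest in WT SP 4 h, but after normalization WT LPS 4 h was higher, at 9.42-fold over the same saline array.

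Myc, a transcription factor of cell growth, measured 23 in saline and 1544 after SP, and was 12.2-fold higher. Its PAR1-/- saline intensity was 46, and with that array as reference the ratio was 4.6. The Myc spot was brighter on the WT LPS 4 h array, at 2818, and that ratio was 61.6 over the same saline array. Egr3, of the zinc finger Egr family, was 2.54-fold higher, with 21 in saline and 220 after SP. Egr1 measured 20 and 23 and was at most 0.423-fold, while Jun and Junb, partners of Fos in AP-1, were at background on both arrays. The list median was a log2 ratio of -0.02, equal to that of all genes with a ratio or bound.

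The promoters of Fos, Lif and Irf1 are shown because these genes, known to answer stimuli early, were all more than 3-fold higher. The 250 bases before the start are from RefSeq (GRCm38.p6), 5′ to 3′, with capitals marking the motifs found on either strand.
Fos, chr12:85473640-85473889, plus strand: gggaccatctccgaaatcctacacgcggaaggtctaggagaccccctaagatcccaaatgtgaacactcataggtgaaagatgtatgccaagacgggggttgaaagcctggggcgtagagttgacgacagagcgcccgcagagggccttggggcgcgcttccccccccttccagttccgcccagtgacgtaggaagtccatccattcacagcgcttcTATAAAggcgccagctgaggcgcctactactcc
Lif, chr11:4257318-4257567, plus strand: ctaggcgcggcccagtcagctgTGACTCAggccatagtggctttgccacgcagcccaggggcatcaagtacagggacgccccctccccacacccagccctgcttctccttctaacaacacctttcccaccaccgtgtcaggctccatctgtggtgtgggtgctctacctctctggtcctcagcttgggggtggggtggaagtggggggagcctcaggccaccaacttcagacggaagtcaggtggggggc
Irf1, chr11:53769764-53770013, plus strand: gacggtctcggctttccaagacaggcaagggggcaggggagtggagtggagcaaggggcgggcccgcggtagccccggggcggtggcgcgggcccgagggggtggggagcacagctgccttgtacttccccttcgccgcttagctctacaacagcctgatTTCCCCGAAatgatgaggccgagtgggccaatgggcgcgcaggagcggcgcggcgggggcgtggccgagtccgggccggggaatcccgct
In Fos the capitals mark TATAAA at 33 bases before the start, in Lif the AP-1 letters TGACTCA at 228, and in Irf1 the GAS letters TTCNNNGAA at 90, in the first of 2 listed starts. Of the genes more than 3-fold higher, 58 had a promoter in the table. The AP-1 letters were found in 5 of them (8.62%), against 5.16% of all genes in the table and 4.62% of the genes with a ratio or bound. The 5 were Lif, Rfx5, Laptm4a, Mmp12 and Pacsin2. GAS letters were found in 5 (8.62%, against 8.13% of all genes), TATAAA in 10 (17.2%, against 14.3%) and CACGTG, an E-box that Myc can bind, in 2 (3.45%, against 6.86%). The CRE letters TGACGTCA and the CArG box were in none of the 58 windows, and in 1.77% and 1.62% of all genes. Only these patterns within the 250 bases were searched, so variants and sites further upstream were not looked for.

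**Figure D2:**
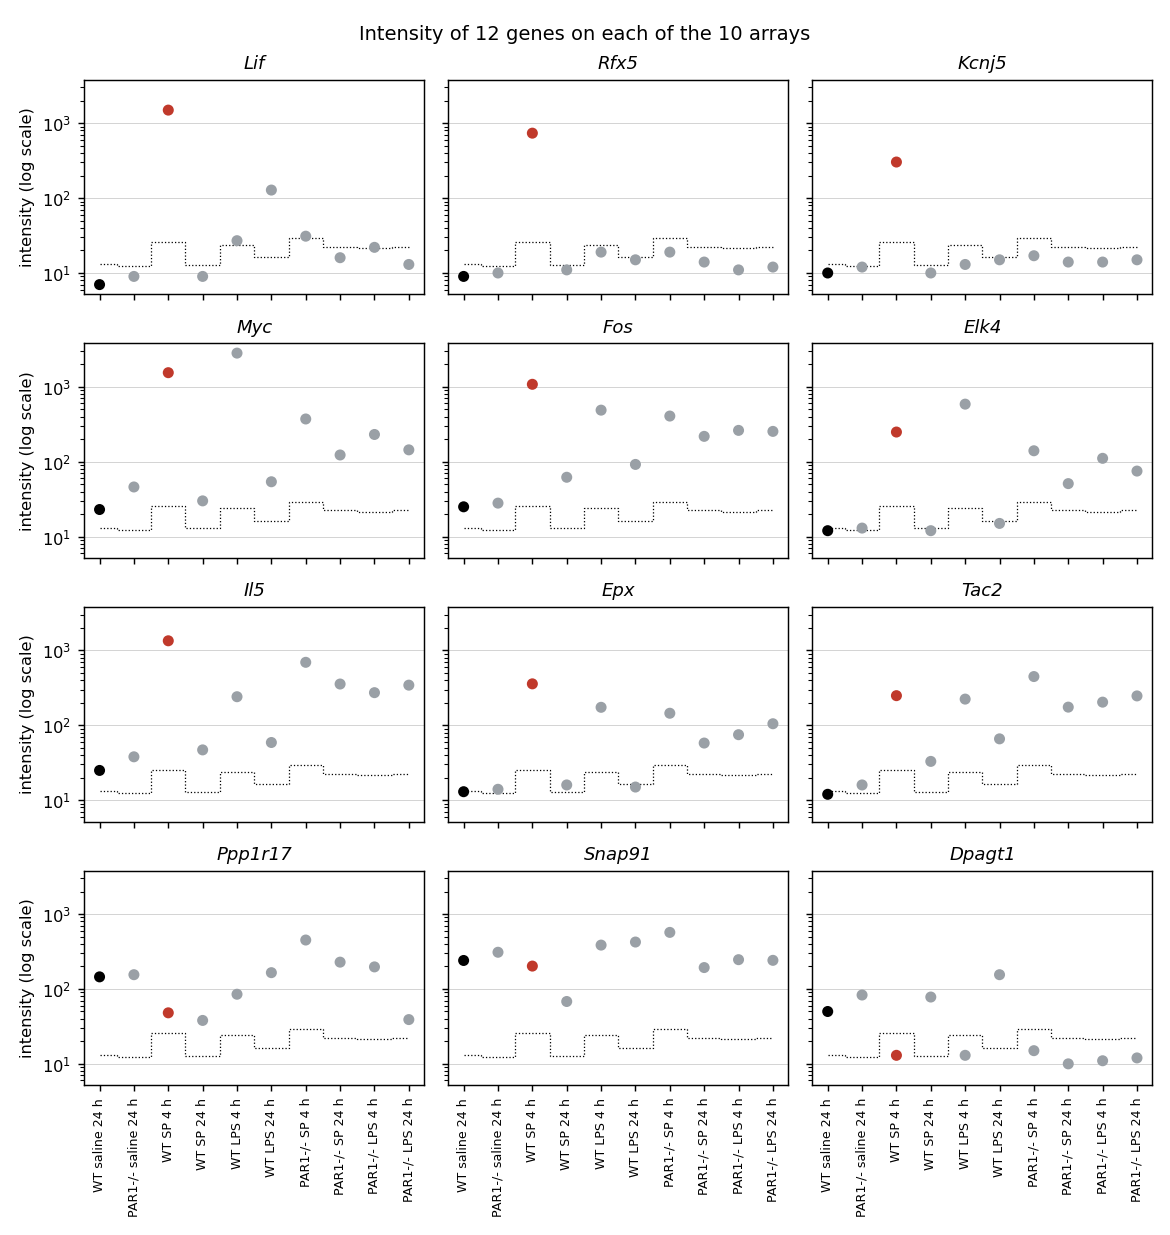
Intensity (y axis, log scale) of 12 genes on each of the 10 arrays (x axis), with the WT saline array in black, the WT SP 4 h array in red and the background threshold of each array as a dotted line. Lif, Rfx5 and Kcnj5 lie above 100 on the SP array and near the threshold on most others, whereas Tac2, Il5 and Epx are also bright on other challenged arrays.

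Among cytokines, interleukins and their receptors, 59 genes were on the array and 13 had a ratio or bound, with 3 more than 3-fold higher (23.1%, against 4.76% of all genes) and none lower (1.34% of all genes). The list median, with lower bounds such as that of Lif included, was a log2 ratio of 0.43, against -0.02 over all genes. Besides Lif these were Il5, the growth factor of eosinophils, and Jak3, a kinase of interleukin receptors. Il5 measured 25 in saline, 1345 after SP, 47 in WT SP 24 h and 241 in WT LPS 4 h, a 9.8-fold difference at 4 h of SP. In PAR1-/- it measured 38 in saline and 694 in SP 4 h, or 2.44-fold. Jak3 measured 31 and 577, or 3.66-fold. Epx, the eosinophil granule peroxidase, measured 13 in saline and 358 after SP and was at least 6.76-fold higher, although the receptor gene Il5ra was 1.31-fold, with 20 and 95.

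Of 17 chemokines and receptors with a ratio or bound none was more than 3-fold higher, against 4.76% of all genes. The 2 that were more than 3-fold lower, against 1.34% of all genes, were both upper bounds. The monocyte chemokine Ccl2 was 2.2-fold (28 and 277), and Ccl4 was 1.48-fold (29 and 184). Ccl7 measured 38 in saline and 23 after SP and was at most 0.196-fold, and Cxcl14 measured 27 and 24 and was at most 0.295-fold. Both were at background after SP. On the PAR1-/- saline array Ccl7 was at 19, and with that array as reference the bound was 0.418. Tnf was 0.358-fold, with 45 in saline and 65 after SP, and no gene of the NF-kappaB and TNF superfamily list passed 3-fold among 13. Beside shares of 4.76% and 1.34%, counts in lists this short are no result about the lists. Il6 and Il1b were at background on both arrays.

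The interferon and antigen presentation list held 16 genes with a ratio or bound, a median log2 ratio of 0.37, and Rfx5 and Irf1 above 3-fold. The interferon-regulated factor Irf1 measured 19 in saline, 250 after SP and 134 in WT LPS 4 h, and was 3.2-fold higher. With PAR1-/- saline (26) as reference it was 1.99-fold. Psme1, an activator of the proteasome, was 2.56-fold (22 and 237). The MHC class II gene H2-Ab1, in contrast to Rfx5, measured 84 in saline and 233 after SP, a ratio of 0.509.

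The SP system itself was mostly at background. Of its 10 listed genes 7 were on the array, and 3 had a bound. Tacr1, the SP receptor, measured 9 on both saline arrays and 70 on the SP array, and was at least 1.66-fold higher. On the remaining 7 arrays it lay between 7 and 15, at background. Tac1, which encodes SP, measured 10 and 13 and was at background on both arrays. Tac2, which encodes neurokinin B, measured 12 in saline and 249 after SP and was at least 4.94-fold higher. Its intensity was also 224 in WT LPS 4 h and 33 in WT SP 24 h. Ace, a peptidase known to degrade SP, was at least 1.37-fold (12 and 56), and Mme, another such peptidase, was at background with 8 and 16.

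Of 28 genes of Gq, calcium and phospholipase signalling on the array, 10 had a ratio or bound. Rgs4 alone was more than 3-fold higher (10%, against 4.76% of all genes), and none was more than 3-fold lower (1.34% of all genes). Rgs4, which speeds GTP hydrolysis by Gq and Gi, measured 25 on both saline arrays and 581 after SP, a 4.76-fold difference. The protein kinase C genes did not share a direction: Prkcd was 1.44-fold (36 and 241), Prkch 0.762-fold (29 and 85) and Prkcb 0.374-fold (117 and 258). Pla2g4a, the phospholipase that releases arachidonic acid, was 2.01-fold (24 and 202). Among 8 genes of the MAP kinase list only Elk4 was more than 3-fold higher (12.5%, against 4.76% of all genes). Elk4, an Ets factor that MAP kinases activate, measured 12 and 249 and was at least 4.94-fold higher, and was brighter in WT LPS 4 h, at 587. Dusp2, a MAP kinase phosphatase, was 1.21-fold, with 133 and 1204.

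Of the proteinase-activated receptors, F2r (PAR1) measured 10 in saline and 22 after SP, and F2rl2 11 and 24, at background on both arrays. F2r was at 195 on the WT LPS 4 h array. In the same list, F2 (prothrombin) was 2.09-fold (35 and 356), the plasminogen activator Plau 1.09-fold (40 and 201) and F3 (tissue factor, the cofactor of factor VIIa) 0.525-fold (77 and 214). None of the 5 genes of this list with a ratio passed 3-fold, and the list median was a log2 ratio of -0.40. In the LPS sensing list, 1 of 6 did: Ly96, the MD-2 partner of TLR4, measured 11 and 141 and was at least 3.03-fold higher. With PAR1-/- saline (30) as reference, Ly96 was 1.01-fold. The adaptor Myd88 was 1.73-fold (41 and 357).

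The higher genes of no pathway list that had the highest values are given one by one. Pacsin2 and Ehd1, which shape and recycle endocytic membranes, were 6.2-fold (27 and 880) and 5.44-fold (17 and 397), and the adaptor subunit Ap3s2 4.14-fold (16 and 266). The coatomer subunit Copz1 was at least 4.01-fold higher (13 and 195), and Laptm4a, a lysosomal membrane protein, 4.98-fold (23 and 546). The mRNA export factor Nxf1 was 6.41-fold (17 and 481), Acin1 at least 7.93-fold (10 and 431) and the RNA helicase Mov10 at least 4.77-fold (11 and 239). Of the 73 named genes more than 3-fold higher, 52 were in none of the pathway and study lists. The share of all genes outside the lists was not counted, so this is no result about the higher genes. Among the 52 were also the zinc finger gene Zfp97, 8.55-fold with 14 and 513, and the homeobox gene Meox2, 4.09-fold with 45 and 1103. The PAR1-/- saline array read 13 for Zfp97 and 12 for Meox2. Abcb10 was 5.72-fold (20 and 528), Phex 4.84-fold (33 and 872), Lrrfip1 4.72-fold (18 and 365) and Adcy6 4.53-fold (16 and 295). Egf was 4.2-fold (17 and 294) and Grb7 at least 4.96-fold (10 and 250). Pcmt1 was 4.11-fold (14 and 219), Thumpd3 4.1-fold (16 and 263), Cyb561 4.02-fold (15 and 235) and Polr1d at least 3.9-fold (13 and 189).

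The remaining lists held 1 or 2 genes each that were more than 3-fold higher, or none. These were Btg3 (at least 3.27-fold) and the cyclin-dependent kinase activator Cdc25b (3.21-fold) of 20 cell cycle genes, Xiap (at least 3.01-fold), an inhibitor of caspases, of 8 apoptosis genes, and Pfn1 (3.77-fold), profilin, of 19 actin genes. Mmp12, macrophage elastase, was 3.5-fold (15 and 200), the sole one of 14 matrix genes. Sufu, an inhibitor of hedgehog signalling, was at least 6.3-fold higher (6 and 330) and Foxn1 at least 6.17-fold (13 and 322). The PAR1-/- saline array read 44 for Sufu and 43 for Foxn1, and with it as reference they were 1.29-fold and 1.3-fold. Olfr69 and Cdh17, each at 6 in WT saline, were at least 8.43-fold and 6.84-fold higher, and 1.68-fold and 1.69-fold against PAR1-/- saline. Rpl30 was 4.85-fold (19 and 406). Of the 3 spots of Rps29 only the one with 13 and 175 passed 3-fold, and the others read 16 and 13, and 11 and 30. For 11 of the 78 higher genes the PAR1-/- saline intensity was over 2 times that of WT saline, among them also Ehd1 and Adcy6, at 1.66-fold and 1.57-fold against PAR1-/- saline. With PAR1-/- saline as reference, 29 of the 45 higher genes named by the rule given below were more than 3-fold higher. Besides those given, Copz1 was 2.99-fold, Xiap 2.67-fold, Cdc25b 2.6-fold, Cck 2.54-fold, Phex 2.53-fold, Abcb10 2.41-fold, Rps29 2.19-fold and Pfn1 1.61-fold against that reference. The neuropeptide gene Cck was at least 3.4-fold higher (12 and 161). None of the genes with a ratio or bound in the lists of leukocyte adhesion (7), eicosanoids (6), vascular growth factors (14) and heat shock proteins (15) was beyond 3-fold. In the list of PAR1-dependent transcripts, which the study chose on these samples and which is no independent evidence of direction, 28 genes had a ratio or bound. Of these 2 (7.14%), Btg3 and Rps29, were more than 3-fold higher, near the 4.76% of all genes. Ccl7 alone was more than 3-fold lower, against 1.34% of all genes. The study required a WT ratio above 3 after LPS or SP at 4 or 24 h, with no change in PAR1-/-. Only SP at 4 h was read here.

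**Figure D3:**
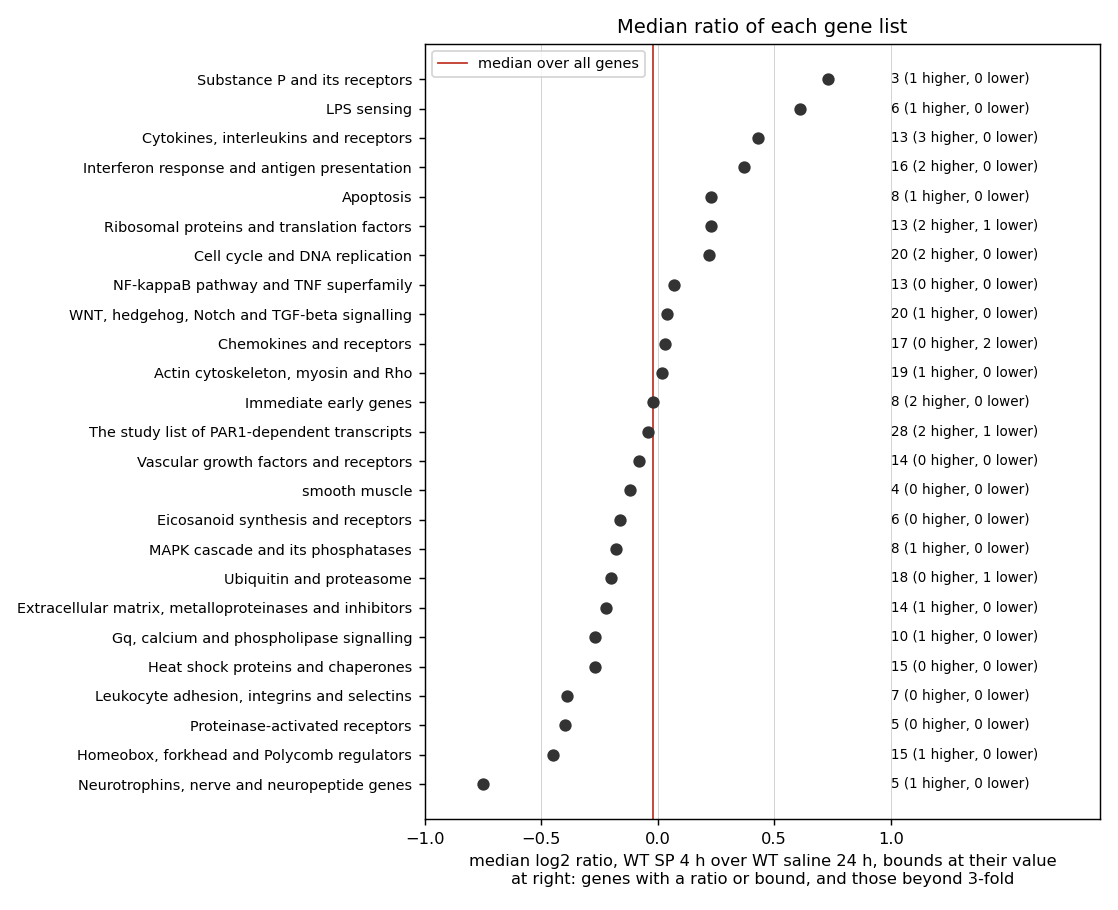
Median log2 ratio of WT SP 4 h over WT saline 24 h (x axis) of each gene list with at least 3 genes having a ratio or bound, bounds taken at their value, with the median over all genes as a red line. The medians lie between -0.75 and 0.73, against -0.02 over all genes, and at right stand the genes with a value and those beyond 3-fold. Lower bounds are positive and upper bounds negative by the rule that kept them. The 0.73 is that of the SP list, whose 3 values are all lower bounds, so it could only be positive.

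After normalization the share of lower probes was highest among those brightest in saline. The saline value is also the denominator of the ratio, and the floor at background limits how low a dim probe can go. No probe with a saline intensity over 80 was more than 3-fold higher, and 8 of 65 (12.3%) were more than 3-fold lower, against 7 of 385 (1.82%) at intensities of 21 to 40. The median log2 ratio after normalization was -0.39 at intensities up to 20, -0.16 at 21 to 40, -0.47 at 41 to 80 and -0.68 over 80. Without normalization or floor it was 1.22 at intensities up to 20 and 1.94 over 80. The fitted slopes were 0.836 for saline and 1.162 for SP, and their part in the share of lower probes was not tested. In intensity, the 22 lower genes had a median of 50 in saline and 46 after SP, on an array whose other spots were brighter. Ppp1r17, an inhibitor of protein phosphatases, measured 145 in saline and 48 after SP and was 0.068-fold, the lowest ratio. Of the 16 lower genes named by the rule given below, Ppp1r17 alone was more than 3-fold lower under all 12 alternative settings. Snap91, a clathrin assembly protein of synapses, was 0.128-fold (240 and 202), and Naca, a chaperone of nascent chains, 0.156-fold (90 and 65). Dpagt1, the enzyme that begins N-glycosylation, measured 50 in saline and 13 after SP and was at most 0.141-fold, while it was at 83 in PAR1-/- saline and 78 in WT SP 24 h.

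Other genes in this direction were Fancc (at most 0.169-fold) and Fanca (0.293-fold) of the Fanconi anemia complex, Serinc3 (0.203-fold), the muscle M-band protein Myom2 (0.207-fold), cathepsin K Ctsk (0.231-fold) and the ciliary gene B9d1 (0.233-fold). Rnf14 was 0.272-fold, the anion exchanger Slc26a4 0.276-fold, Rps4x 0.287-fold and the deubiquitinase Usp2 0.291-fold. Myom2, B9d1, Rnf14, Slc26a4, Ctsk and Usp2 were brighter on the SP array before normalization, for example B9d1 with 207 in saline and 330 after SP, so their direction rests on the scaling.

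**Figure D4:**
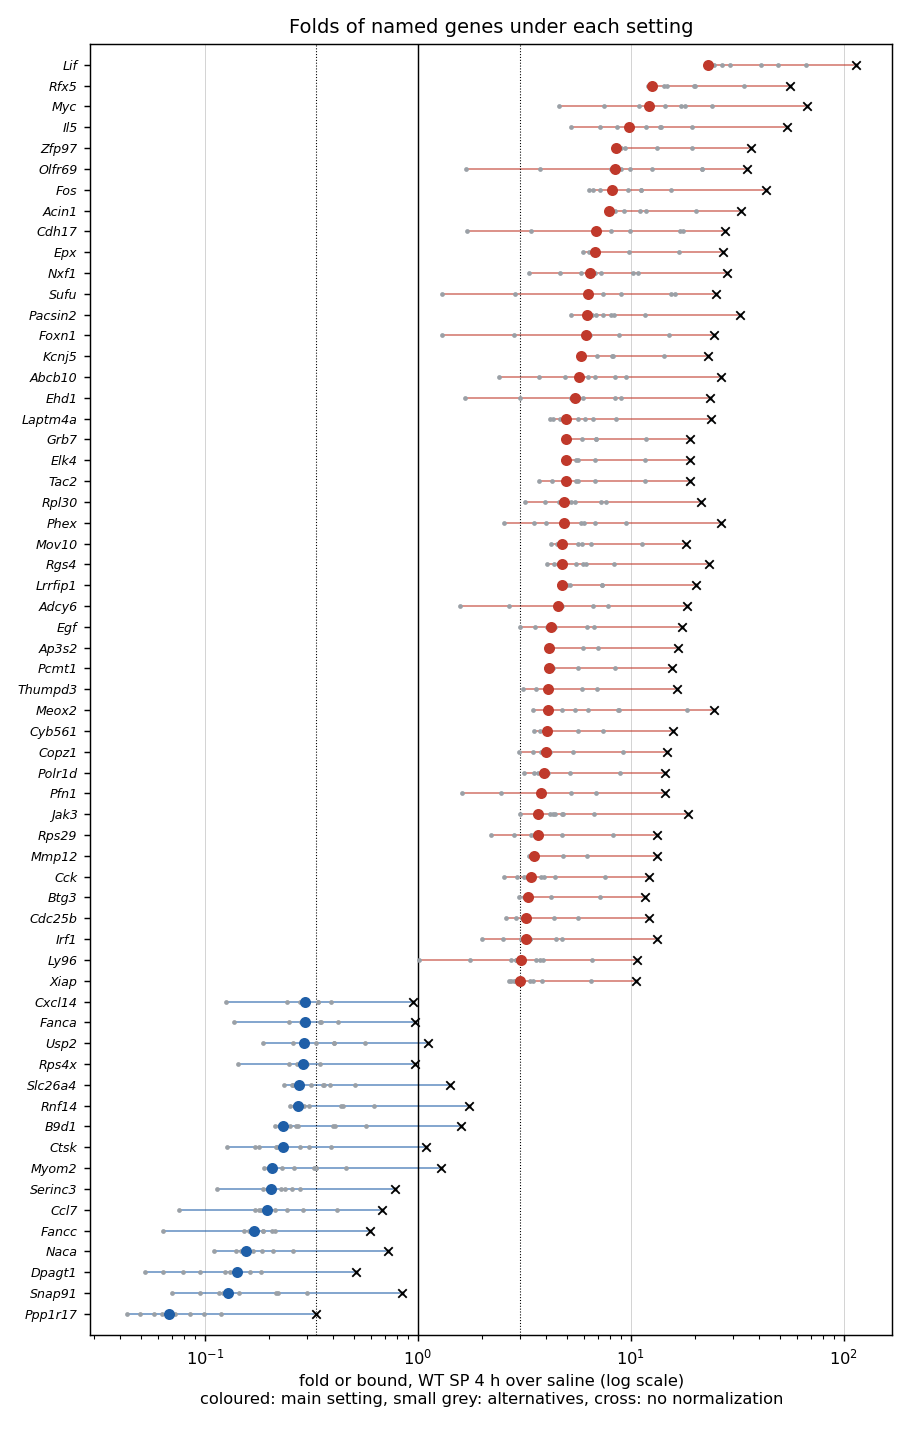
Fold or bound of WT SP 4 h over saline (x axis, log scale) of the 61 genes beyond 3-fold named by the rule given below. The main setting is shown as coloured points, the alternatives as small grey points and no normalization as crosses. Of 45 higher genes 28 stay above 3-fold under each of the 12 alternatives that gives a value, and of 16 lower genes 1 stays below.

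The same genes were read in the comparisons set beside this one. The WT comparisons share the WT saline array, so no overlap between them was counted. In WT LPS 4 h 120 of 1892 genes (6.34%) were more than 3-fold higher and 25 (1.32%) lower, and in WT SP 24 h 13 of 1547 (0.84%) and 9 (0.582%). At 24 h of SP, Myc was 1.35-fold, Fos 2.92-fold, Il5 2.09-fold and Rgs4 1.67-fold, while Ehd1 was 6.67-fold and Adcy6 4.5-fold. The WT SP 24 h array was about as dim as the saline array (intensities summing to 75208 and 73763). The arrays of WT SP 4 h (258511) and WT LPS 4 h (169237) were brighter, and the part of brightness in these differences was not tested. In WT LPS 4 h, Elk4 was at least 24.5-fold, Tac2 at least 9.21-fold, Rgs4 6.9-fold and Meox2 0.726-fold.

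The PAR1-/- comparison has its own saline array. There 22 of 1669 genes (1.32%) were more than 3-fold higher and 29 (1.74%) more than 3-fold lower. Of the 78 genes higher in WT, 67 had a ratio or bound in PAR1-/-, and 5 of these were more than 3-fold higher. They were Tac2 (4.99-fold), Laptm4a (3.6-fold), Rgs4 (3.51-fold), Meox2 (at least 3.04-fold) and 1 unnamed probe. The gene Pspn, chosen after its values were seen, was 4.02-fold higher in WT and 0.227-fold in PAR1-/-. Its PAR1-/- saline intensity was over 2 times that of WT saline, so these folds have unlike references. Of the 22 lower genes, 5 were more than 3-fold lower in PAR1-/-: Dpagt1 (at most 0.0532-fold), Snap91 (0.141-fold), Ppp1r17 (0.275-fold), Naca (0.277-fold) and 1 unnamed probe. Intensities of the 78 probes had a median of 15.5 in WT saline and 278 in WT SP 4 h, and of 19 in PAR1-/- saline and 146 in PAR1-/- SP 4 h. The median of the 67 folds after normalization was 1.27 in PAR1-/-. The 78 were chosen by their WT ratio, so the WT medians follow from that choice. The choice alone can also make the PAR1-/- difference smaller, so these values are no evidence of a dependence on PAR1. The difference between the genotypes was not tested, since each has 1 array per condition.

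**Figure D5:**
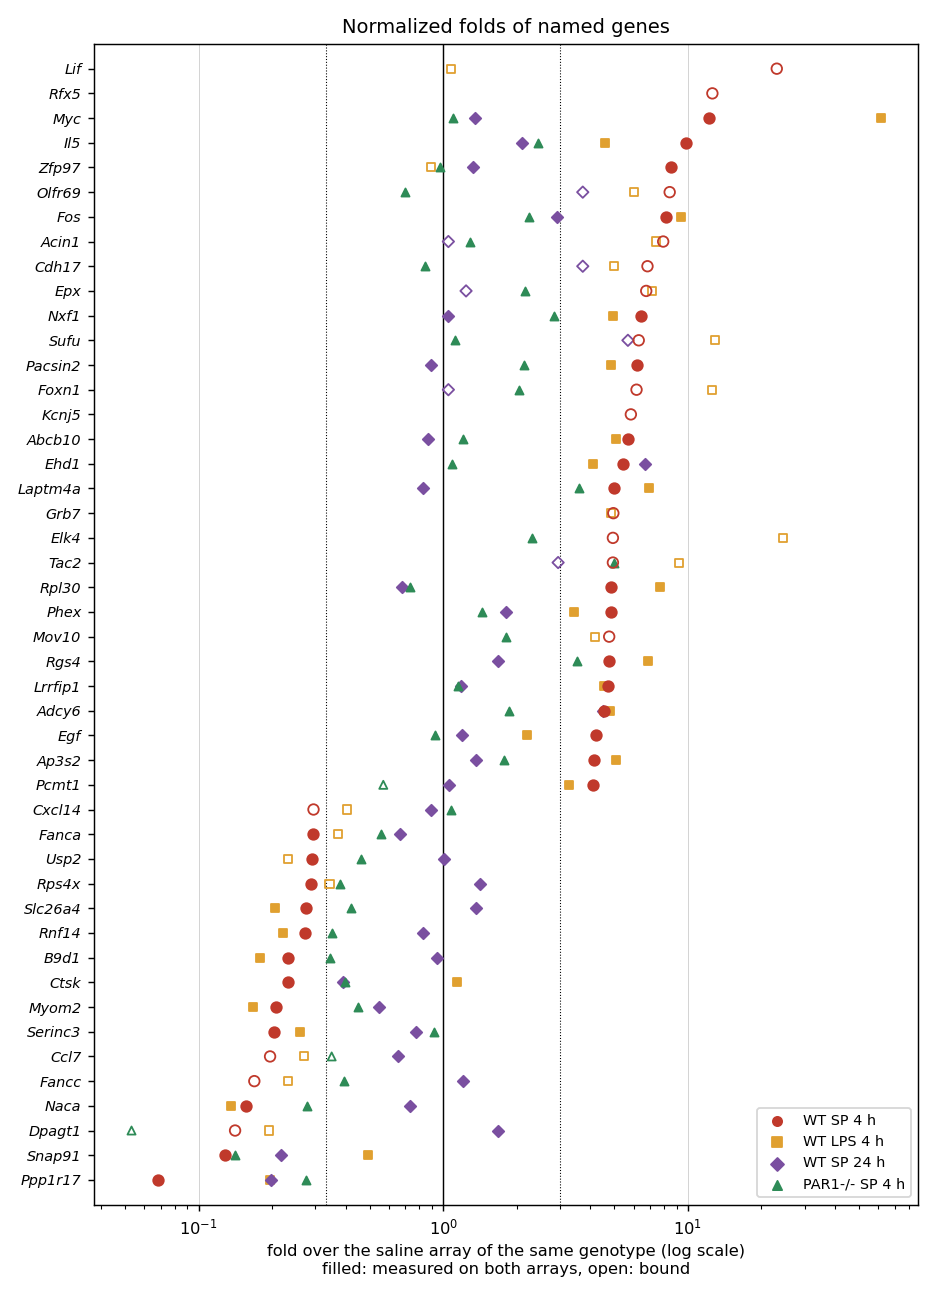
Normalized fold over the saline array of the same genotype (x axis, log scale) of 30 named genes highest and 16 lowest in WT SP 4 h, in 4 comparisons, filled where measured on both arrays and open where a bound. WT SP 24 h lies near 1 for most genes, WT LPS 4 h reaches 61.6 for Myc, and PAR1-/- SP 4 h passes 3 for Laptm4a, Tac2 and Rgs4 among the genes plotted.

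Cell type markers were few. Of 8 mast cell markers on the array 2 were above background on either array, among them Cpa3, carboxypeptidase of mast cell granules, with 146 in saline and 671 after SP (0.653-fold). The mast cell chymase Cma1 (13 and 16), Fcer1a (9 and 13) and Tpsb2 (9 and 14) were at background. Of 6 neutrophil markers S100a9 was 0.516-fold (19 and 30), and S100a8, Elane and Mmp9 were at background on both arrays. The macrophage marker Fcgr1 was 2.46-fold (16 and 145), Csf1r 0.415-fold (31 and 46), and Cd68 and Cd14 were at background. The summed intensities, not normalized, of the mast cell list were 220 and 812, of the neutrophil list 77 and 127, and of the macrophage list 65 and 217. Over all genes they were 73763 and 258511, so these sums carry the brightness of the SP array. Cpa3 alone gave 146 and 671 of the mast cell sums. No marker of the 9 cell type lists passed 3-fold. Tpsg1, a mast cell tryptase outside these lists and chosen after its values were seen, was just inside the limit at 3.05-fold, with 53 in saline and 983 after SP, and the part of such cells in the ratios above was not tested.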

How the data were processed

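Total RNA of pooled mouse bladders (8 per pool) was measured on 10 radioactive Atlas arrays. The authors read the spots with AtlasImage and, per their methods, normalized by robust linear regression. The values they deposited are scores that, as read from the values, were standardized per probe over the arrays and put on a power scale, whereas intensities had been assumed. The smallest whole numbers up to 3000 that give back a probe's scores were searched with numba 0.67.0, which was checked on 2000 simulated probes: 99.9% of recovered ones had the right numbers. For 12 probes, among them Olfr69, Cdh17 and Sufu, the recovered intensities may all be too low by a common factor.

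The platform annotation gave 1 gene for 4633 probes, several for 5 and none for 392, and 4624 named probes matched the RefSeq table. Arrays were scaled with rlm of MASS 7.3.60.0.1 (R 4.3.3) over the 534 probes above background on all 10. A gene counts where any of its probes passes 3-fold, and a gene's value in medians is the mean over its probes. With 1 array per condition no test was made and precision is limited by that number. The members and the 33 lists were chosen with earlier results of these data known. Named were the 20 highest ratios, the 15 highest lower bounds, the 15 lowest values, members of lists beyond 3-fold, genes of the SP, PAR and LPS sensing lists with a value, and up to 4 further bright members of each list. Gas1, Pspn, Tpsg1, Fem1a, Cd82, Fth1, Strap, Artn, Egr1, Tnf and the genes given as at background were named outside this rule, after their values were seen, as were Actb and Gapdh. Alternatives changed the normalization, background, floor, saline reference, probe choice and fold limit.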

Additional observations from a re-analysis of the deposited data

How the results depend on the processing

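The counts of 78 higher and 22 lower genes depended on scaling and on the treatment of background. With no normalization they were 953 and 1, with equal 75th percentiles 180 and 8, and after subtraction of the background mode 211 and 131. The lower count was 44 with equal medians and 43 with no floor. At a 2-fold limit 204 genes were higher and 137 lower. The median log2 ratio of genes measured on both arrays, -0.15, became 1.76 with no normalization, and the log2 ratios of B9d1, Ctsk, Myom2, Rnf14, Slc26a4 and Usp2 turned to 0.67, 0.12, 0.35, 0.79, 0.50 and 0.16. Of the 61 genes beyond 3-fold named by the rule, 40 were so with PAR1-/- saline as reference. In the comparisons set beside, 78 values of named genes were beyond 3-fold, and 219 with no normalization. The cause of these shifts was not tested. Of the values of single genes under the alternatives, 1569 moved by less than the SD of 0.47 between the saline arrays, 462 moved by more and 6 reversed; of the list medians 245 moved by less and 55 by more. No paired analysis was possible because each condition has 1 array of its own pool.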
